A study of Mus musculus with 18 samples.

Results

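The genes described here are 10 integrin subunits of the mouse heart, Itga1, Itga5, Itga7, Itga8, Itga9, Itga11, Itgav, Itgb1, Itgb3 and Itgb5, taken by symbol from the 51435 genes in the expression tables. All 10 were found, and all 10 passed the filter on low counts (above 1 read summed over the mice) that left 24804 genes to test. RNA came from the left ventricle of 18 mice on a C57BL/6J background, 9 WT mice and 9 Wwp2Mut/Mut littermates. The mutant mice are homozygous for a 4-bp CRISPR/Cas9 deletion in exon 2 of Wwp2, an E3 ubiquitin ligase gene. The frame shift is aimed at the full-length and N-terminal forms of the protein, and the C-terminal form was described as unaffected, so the line is not a null for every form. Every mouse in both groups received angiotensin II (AngII) by osmotic pump at 500 ng/kg/min for 28 days from 8 weeks of age. No mouse without AngII is among the 18 libraries, so the comparison is between genotypes under AngII and says nothing of the response to AngII itself.

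Integrins are receptors made of an alpha and a beta subunit that bind matrix proteins outside the cell and, through talin, kindlin and other adaptors, the actin cytoskeleton inside it. In the heart they sit at the costameres of cardiomyocytes, where they carry force between sarcomere and basement membrane, and on fibroblasts, where several of them bind fibronectin and collagen or release TGF-beta from its latent complex. Itgb1 is the shared partner of most alpha subunits, while Itgb3 and Itgb5 pair with Itgav.

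Library totals ran from 24566994 to 37451087 expected counts. Wwp2 itself was lower in the mutants, at 1.19 to 3.00 TPM (a level of transcripts, scaled for length and library) against 3.83 to 6.01 TPM in WT mice. The groups of Wwp2 did not overlap, and the log2 fold change was -1.40 ± 0.16 (SE, edgeR quasi-likelihood test with Benjamini-Hochberg adjustment, adjusted p = 0.00113). It was the only gene called for genotype, 0.00403% of those tested, and 0.00403% had groups that did not overlap. Every library held ventricle, with Myl2, a ventricular myosin light chain, at 15459.8 to 25643.8 TPM. That level does not show that other tissue was absent. Myl7, an atrial light chain, ranged from 0.09 to 338 TPM and Alb, the liver albumin gene, from 0.07 to 113 TPM. The TPM of all listed genes summed to between 671770 and 826381 per mouse, and the values were used as deposited.

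The beta subunits were led by Itgb1 (chr8:128685654-128733200, plus strand, GRCm38). Its lowest, median and highest level was 38.3, 83.4 and 116.8 TPM in WT mice and 39.5, 64.1 and 104.3 TPM in Wwp2Mut/Mut mice. The ranges lay almost on top of each other, and within either genotype the highest mouse was far above the lowest. Itgb5 (chr16:33829665-33949338, plus strand), which pairs with Itgav in vitronectin receptors, stood at 20.4, 34.8 and 44.6 TPM in WT mice and 23.3, 33.2 and 40.2 TPM in the mutants. Itgb3 (chr11:104608000-104670476, plus strand), the beta subunit of the platelet fibrinogen receptor and of another vitronectin receptor, was under 1 TPM in all 18 mice, at 0.22, 0.27 and 0.49 TPM in WT mice and 0.19, 0.33 and 0.48 TPM in the mutants. Of the summed TPM of these 3 beta subunits, Itgb1 held 61.4% to 75.7%, Itgb5 23.9% to 38.0% and Itgb3 0.154% to 0.638%. Itga2b, the platelet partner of Itgb3, was at 0.36 to 1.27 TPM, and 8 platelet markers summed to 18.2 to 35.7 TPM; their part in the Itgb3 level was not tested.

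Among the 7 alpha members Itga7 (chr10:128933818-128958282, plus strand), the laminin receptor subunit of striated muscle, was highest. It stood at 33.1, 45.7 and 62.6 TPM in WT mice and 32.4, 47.6 and 59.2 TPM in Wwp2Mut/Mut mice. Of the summed TPM of these 7 it held 48.7% to 72.7%. The members leave out Itga6, an alpha subunit with a higher median in both genotypes. Itga6 was at 51.4, 78.1 and 111.9 TPM in WT mice and 45.1, 72.3 and 118.0 TPM in the mutants. Next among the 7 was Itga5 (chr15:103344286-103366763, minus strand), the fibronectin receptor subunit, at 8.04, 13.2 and 18.5 TPM in WT mice and 8.79, 10.4 and 13.4 TPM in the mutants. The WT mice spread more widely than the mutants here, and 1 WT mouse was below every mutant. Itga9 (chr9:118606690-118901003, plus strand), which binds tenascin C and osteopontin, was at 3.32, 6.40 and 17.6 TPM in WT mice and 3.27, 4.91 and 11.1 TPM in the mutants. Its highest mouse had 5.39 times the TPM of its lowest.

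Itgav (chr2:83724397-83806916, plus strand), the subunit that binds vitronectin and latent TGF-beta, was at 2.24, 3.44 and 8.43 TPM in WT mice and 2.27, 3.59 and 7.18 TPM in Wwp2Mut/Mut mice. Itga1 (chr13:114953096-115101964, minus strand), a receptor subunit for basement membrane collagen, was at 1.60, 3.18 and 5.42 TPM in WT mice and 1.60, 2.63 and 5.03 TPM in the mutants. The genotypes overlapped over most of the range for either gene, and the highest mouse was WT for both. Itga8 (chr2:12106632-12301922, minus strand), a mesenchymal receptor subunit for nephronectin, stood at 0.26, 0.52 and 1.13 TPM in WT mice and 0.27, 0.65 and 0.82 TPM in the mutants. Itga11 (chr9:62677826-62783982, plus strand), the fibrillar collagen receptor subunit of fibroblasts, stood at 0.23, 0.41 and 0.91 TPM in WT mice and 0.16, 0.42 and 0.46 TPM in the mutants. These low levels rested on 63 to 221 counts per mouse for Itga8, 41 to 177 for Itga11 and 50 to 122 for Itgb3.

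**Figure D1:**
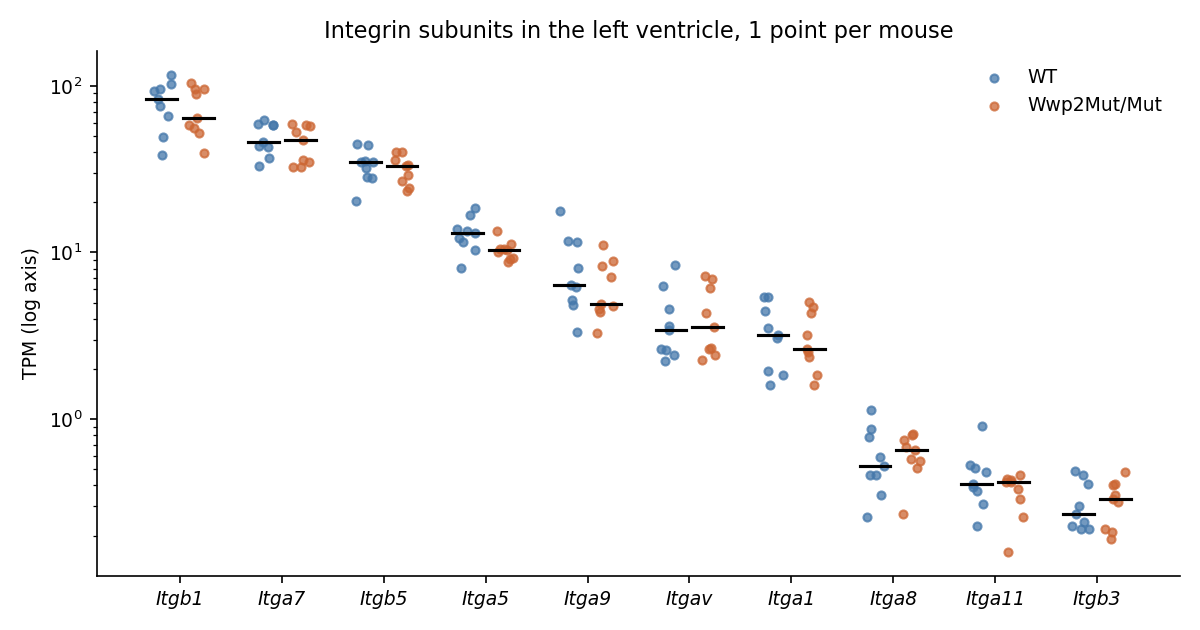
Level of each integrin subunit in TPM (log axis), with 1 point per mouse, WT in blue and Wwp2Mut/Mut in orange, and a bar at each group's median. Itgb1, Itga7 and Itgb5 lie above 20 TPM in every mouse, Itga8, Itga11 and Itgb3 lie near or under 1 TPM, and the genotypes overlap for every subunit.

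By median TPM the order was Itgb1, Itga7, Itgb5, Itga5, Itga9, Itgav, Itga1, Itga8, Itga11 and Itgb3. Itgb5 exceeded Itga5, Itga5 exceeded Itga9 and Itga1 exceeded Itga8 in 18 of 18 mice. Neighbours elsewhere changed places between mice. Itgb1 was above Itga7 in 14 mice, Itga7 above Itgb5 in 14, Itga9 above Itgav in 13 and Itgav above Itga1 in 10. These exceptions lay at 1 end of gene body coverage, a technical value described further on. The 4 mice with Itga7 above Itgb1 had a coverage of 0.0479 to 0.0540, and the 4 with Itgb5 above Itga7 one of 0.0288 to 0.0325. The TPM of Itga7 and Itgav depended on a length estimate that changed along coverage, so their places in the order are uncertain. At the low end Itga8 was above Itga11 in 16 mice and Itga11 above Itgb3 in 15. The ratio of Itga7 to Itgb1 TPM ran from 0.324 to 1.54, with a median of 0.661. Itga7 and Itgb5 varied least in TMM-scaled CPM (read counts relative to library size, not divided by length), with coefficients of variation over 18 mice of 6.74% and 9.52%, and Itga9 varied most, at 36.3%. On the TPM scale the same coefficients were 23.4%, 21.1% and 50.6%.

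Some members overlap other annotated genes by whole gene span, introns included, so an overlap need not touch the exons that were counted. Pelo and Gm49395 overlap Itga1 on its strand, and Gm37701 overlaps Itga8 on its strand. Dnmt3l-ps1 and Gm13684 overlap Itgav on the opposite strand, Mettl7b overlaps Itga7, and Gm10157 and Gm2415 overlap Itga9 in the same way. Gm25494 overlaps Itga7 and Mir6963 overlaps Itga5 on the gene's own strand, and E030013I19Rik overlaps Itga8 and Gm10734 overlaps Itga1 on the opposite strand. The library kit keeps strand, but the strand setting of the counting was not given in the sources used here, so these values are uncertain to that extent. The expected counts of Itgb5 were not whole in any of the 18 mice, so part of them came from reads that were shared out, while those of the other 9 members were whole in every mouse.

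No difference between genotypes was detected for any integrin subunit, and the 95% intervals still allowed folds from 0.589 (Itga9) to 1.59 (Itga8). Of the 10 members 0 were called by edgeR, against 0.00403% of all genes tested, 0 had an unadjusted p under 0.05 against 3.66% of all genes, and DESeq2 and limma on log2(TPM + 1), which called 0.00403% and 0.00616% of all genes, also called 0 members. The median log2 fold change of the members, Wwp2Mut/Mut over WT, was -0.061, beside -0.0099 over all genes tested. With 1 mouse left out at a time this median ran from -0.12 to -0.0056. The members were below 0 in 7 cases and above 0 in 3. This split was not stable, since without RNA concentration and lane, with lane alone or with gene body coverage added 6 were above 0 and 4 below, with medians of 0.036, 0.046 and 0.053, while with a score of liver marker genes (their mean log2(TPM + 1)) added the median was -0.20.

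The largest estimate was that of Itga9, with a log2 fold change of -0.26 ± 0.24 (SE) and a 95% interval from -0.76 to 0.25. CPM values of Itga9 averaged 73.4 ± 29.5 in WT mice and 64.0 ± 20.1 in the mutants (SD, n = 9 each), so the difference was smaller than the spread in either genotype. With gene body coverage added the estimate of Itga9 shrank to -0.078 ± 0.14, and with lane alone it was -0.12 ± 0.21, and in both fits Itga8 was farther from 0, at 0.25 ± 0.22 and 0.19 ± 0.19. Itga1 was at -0.14 ± 0.25, with an interval from -0.66 to 0.38, and Itga5 at -0.11 ± 0.12, from -0.37 to 0.15. Itga8 and Itgb3 had the highest estimates, at 0.20 ± 0.22 and 0.19 ± 0.22, with intervals from -0.27 to 0.66 and from -0.27 to 0.65. Leaving out 1 mouse at a time moved them between 0.024 and 0.40 and between 0.078 and 0.28. Itga11 was at -0.061 ± 0.25, with an interval from -0.59 to 0.46.

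The remaining 4 members had smaller standard errors than these, Itga5 apart. For Itga7 the log2 fold change was -0.067 ± 0.086, and its interval ran from a fold of 0.842 to 1.08. For Itgb5 it was 0.057 ± 0.091, from a fold of 0.911 to 1.19. Itgb1 was at -0.061 ± 0.16, with folds from 0.761 to 1.21, and Itgav at -0.024 ± 0.16, with folds from 0.778 to 1.24. The adjusted p was 1.00 for each of the 10 members. The signs of Itga1, Itgav and Itgb1 turned positive when RNA concentration and lane were left out or gene body coverage was added, as did that of Itgav on TPM, while that of Itgb5 turned negative on TPM. RNA concentration, a covariate of the fit, was itself lower in WT mice (median 98.3 against 187 ng/µl, exact permutation p = 0.0422). That comparison and the covariate include an entry of 1.68 ng/µl for WT mouse 43-3, far below every other mouse, which may be an error of entry and was used as deposited.

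**Figure D2:**
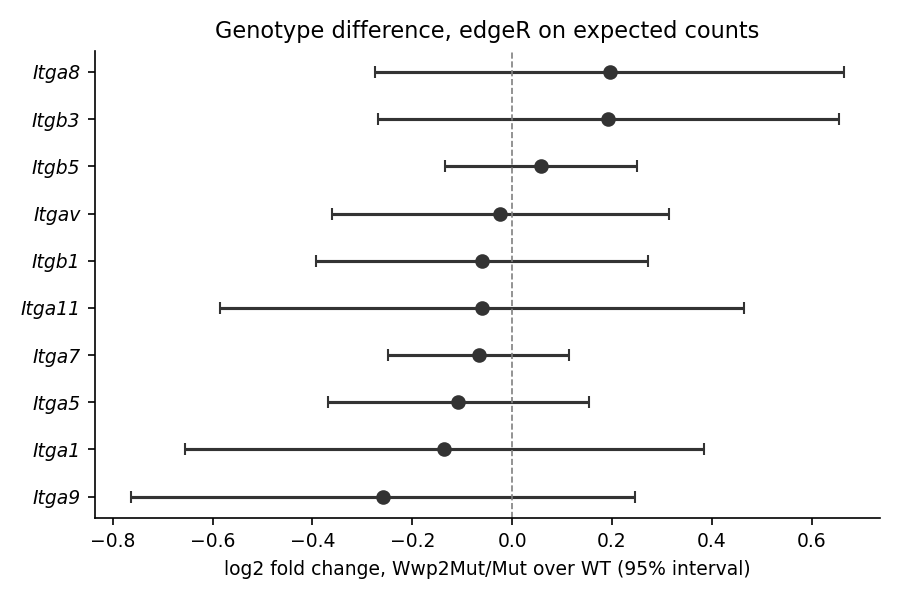
Log2 fold change of each integrin subunit, Wwp2Mut/Mut over WT, from edgeR on expected counts, with points for estimates and bars for 95% intervals. All 10 intervals cross 0, and that of Itga7 is the narrowest.

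Compared by TPM in an exact permutation test, Itga5 gave the smallest p of the 10. Its TPM averaged 13.1 ± 3.14 in WT mice and 10.4 ± 1.40 in Wwp2Mut/Mut mice (SD, n = 9 each; two-sided exact permutation p = 0.0290, adjusted over all genes tested p = 0.910). The remaining 9 members had unadjusted p between 0.239 and 0.892. Unadjusted p under 0.05 was reached by 4.43% of all genes and no gene passed after adjustment, Wwp2 included, the smallest p this design allows being 4.11e-05. Within the 4 sequencing lanes, each of which held both genotypes, Itga5 was lower in the mutants in 3 and higher in 1, with lane differences in log2 CPM from -0.35 to 0.071. No member had the same sign in all 4 lanes, and Itga9 was lower in 2 and higher in 2.

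A list of 8 liver markers had lower estimates in the mutants, all 8 with an unadjusted p under 0.05 and 0 called, and summed to 2.53 to 338 TPM in WT mice and 4.02 to 62.3 TPM in the mutants. With a liver score in the fit, Itga9 stood at a log2 fold change of -0.63 ± 0.25 (unadjusted p = 0.0206 from edgeR, adjusted p = 0.810), the 1 member under 0.05, beside 4.86% of all genes in that fit. Itga1 was at -0.45 ± 0.27, Itgav at -0.29 ± 0.16, Itgb1 at -0.24 ± 0.18 and Itga5 at -0.21 ± 0.14 in the same fit, none of them called, with 7 members below 0 and a median of -0.20 beside 0.019 over all genes. The part of liver RNA in that value was not tested beyond this fit.

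The mice differed far more along gene body coverage than between genotypes. Gene body coverage is a fraction in the deposited sample table whose exact definition is not stated, and it ran from 0.0288 to 0.0540, with a mean of 0.0387 ± 0.00861 in WT mice and 0.0401 ± 0.00825 in Wwp2Mut/Mut mice (SD, n = 9 each; exact permutation p = 0.720). Along it 30.9% of all genes tested were called, 16.1% lower and 14.8% higher with rising coverage. Among the 10 integrin subunits 4 were called, all lower. Itgb1 fell by 0.28 ± 0.037 on the log2 scale per SD of coverage (edgeR adjusted p = 1.14e-05), and Itga9 by 0.41 ± 0.070 (adjusted p = 0.000176). Itgav fell by 0.26 ± 0.049 (adjusted p = 0.000384) and Itga1 by 0.38 ± 0.082 (adjusted p = 0.00118). Each of these 4 had a negative slope of log2 CPM in all 4 lanes, as had Itga8 and Itgb3, which were not called. The median slope of the 10 members was -0.11, beside 0.047 over all genes, and it was -0.034 without WT mouse 43-3, -0.068 without WT mouse 16-1 and -0.053 without RNA concentration and lane.

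Itgb1 showed the relation mouse by mouse. In the 8 mice of lowest coverage, 0.0288 to 0.0341, its CPM lay between 327 and 358. In the remaining 10 it lay between 186 and 295, with no overlap, and both genotypes were in both ranges. The cut lies where the Itgb1 values part. The share of all genes that part at this cut was not counted, and 30.9% of all genes were called along coverage. Itga7 showed none of it in counts. Its CPM was 182 in the WT mouse of lowest coverage and 166 in the WT mouse of highest coverage, and its slope was 0.011 ± 0.037 with an interval from -0.066 to 0.088. Itgb5 (-0.011 ± 0.040), Itga5 (0.071 ± 0.057), Itga11 (-0.043 ± 0.12), Itgb3 (-0.10 ± 0.11) and Itga8 (-0.12 ± 0.11) were not called either.

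**Figure D3:**
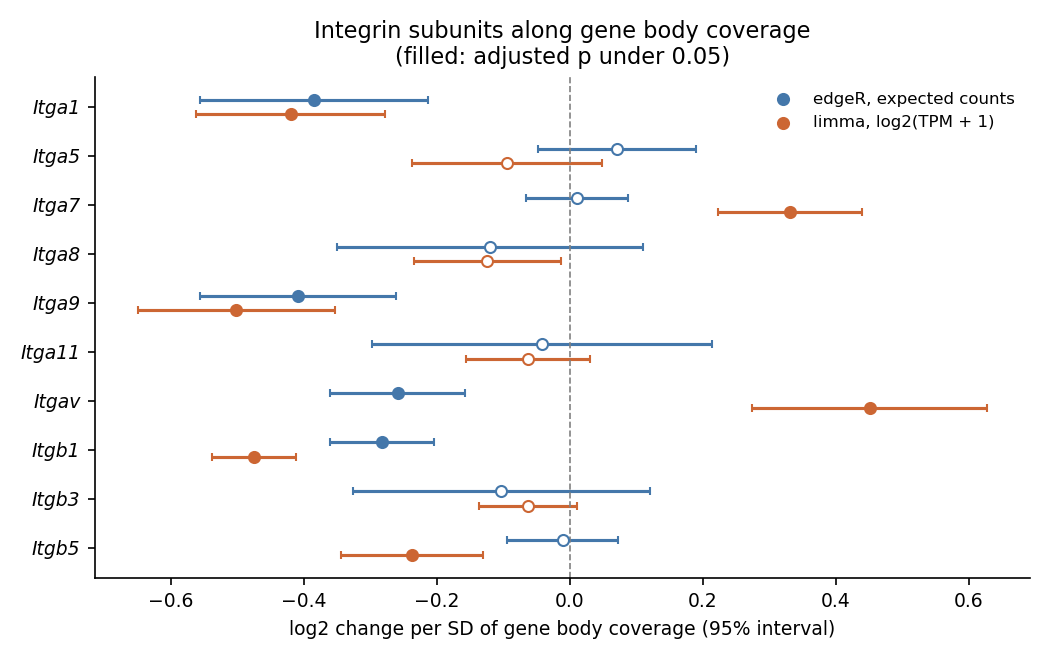
Log2 change of each integrin subunit per SD of gene body coverage, from edgeR on expected counts in blue and from limma on log2(TPM + 1) in orange, with 95% intervals and filled points where the adjusted p is under 0.05. The units place Itgav on opposite sides of 0, and Itga7 moves from near 0 in counts to 0.33 in TPM.

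The unit decided the direction for Itgav. With limma on log2(TPM + 1), over genes of mean TPM of at least 0.1, Itgav rose by 0.45 ± 0.083 per SD of coverage (adjusted p = 0.000353), against the fall in counts. Itga7 rose by 0.33 ± 0.051 (adjusted p = 7.01e-05) and Itgb5 fell by 0.24 ± 0.050 (adjusted p = 0.00104), neither being called in counts. Itga1, Itga9 and Itgb1 fell in both units, by 0.42, 0.50 and 0.48 in log2(TPM + 1). In TPM 49.6% of the genes were called, 41.2% lower and 8.42% higher, so the rises of Itgav and Itga7 ran against the more common direction. Both had a positive slope of log2 TPM in all 4 lanes. In fits chosen after seeing the data, edgeR with the length of each gene and mouse as an offset called 5 members (31.2% of all genes), with Itgav at 0.73 ± 0.11 and Itga7 at 0.50 ± 0.054, and limma on TPM rescaled to an equal sum called 8 (55.1% of all genes). The offset was the log of count over TPM, so that fit repeats the length division of TPM. It is not a separate check of the direction.

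The mice at the ends of the range showed the same thing. In WT mouse 43-3, of lowest coverage, Itgav had 592 counts, 15.99 CPM and 2.65 TPM. In WT mouse 16-1, of highest coverage, it had 260 counts, 11.3 CPM and 8.43 TPM. The mouse with fewer reads thus had the higher TPM. For Itga7 the same mice had 182 and 166 CPM beside 43.8 and 59.0 TPM, and for Itgb1 344 and 205 CPM beside 116.8 and 38.3 TPM. Mouse 43-3 is also the one with the doubtful RNA concentration, and without it Itgav still fell in counts, within the range from -0.28 to -0.24 over all mice left out in turn.

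**Figure D4:**
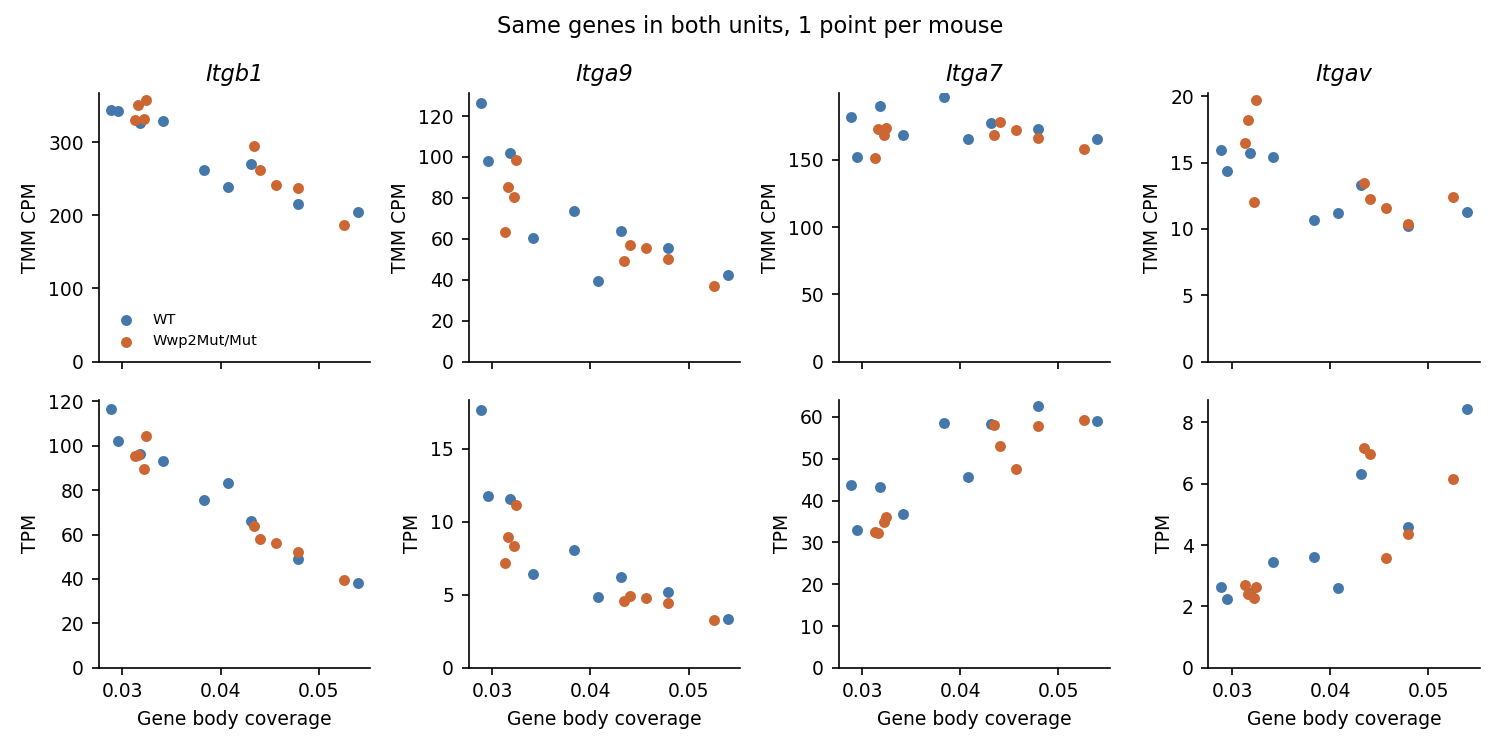
CPM (upper row) and TPM (lower row) of Itgb1, Itga9, Itga7 and Itgav against gene body coverage, with 1 point per mouse, WT in blue and Wwp2Mut/Mut in orange, and axes of level starting at 0. Itgb1 and Itga9 fall in both rows, while Itgav falls from 15.99 to 11.3 CPM and rises from 2.65 to 8.43 TPM between the mice at the ends of the range.

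Dividing the count of a gene by its TPM gives, up to a factor for each mouse, the length by which the quantification divided the reads. That factor was set from 417 protein-coding genes with 1 transcript in GENCODE M21 and a mean TPM of at least 5. Relative to the mouse in which it was longest, the length of Itgav dropped to 12.4% and that of Itga7 to 39.5%, both in WT mouse 16-1. For Itgav the 7 mice under a coverage of 0.033 were at 64.8% or above, and the 8 mice over 0.043 at 12.4% to 33.04%. For Itga7 the same mice were at 89.5% or above and at 39.5% to 56.2%.

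The other subunits kept their length more closely. The lowest value was 99.4% for Itga1, 99.6% for Itga5, 97.7% for Itga11, 95.7% for Itgb3 and 95.01% for Itga9, and 86.1% for Itgb5, 82.0% for Itgb1 and 65.6% for Itga8. Over 11203 genes of mean TPM of at least 1 and a TPM of at least 0.1 in every mouse the median ratio of longest to shortest was 1.12. A ratio as large as that of Itga7, 2.53, was found in 2.03% of them, and one as large as that of Itgav, 8.04, in 0.0536%. The authors quantified with an Ensembl build, so the transcripts behind the TPM may differ from those given next. GENCODE M21 lists 9 transcripts of Itgav, from 7054 to 444 bases, of which 5 are protein coding, and 5 of Itga7, from 4020 to 933 bases, of which 3 are protein coding. The gene tables do not separate transcripts, so which of them took the reads, and whether the mice differed in transcripts or in the estimate, was not tested.

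**Figure D5:**
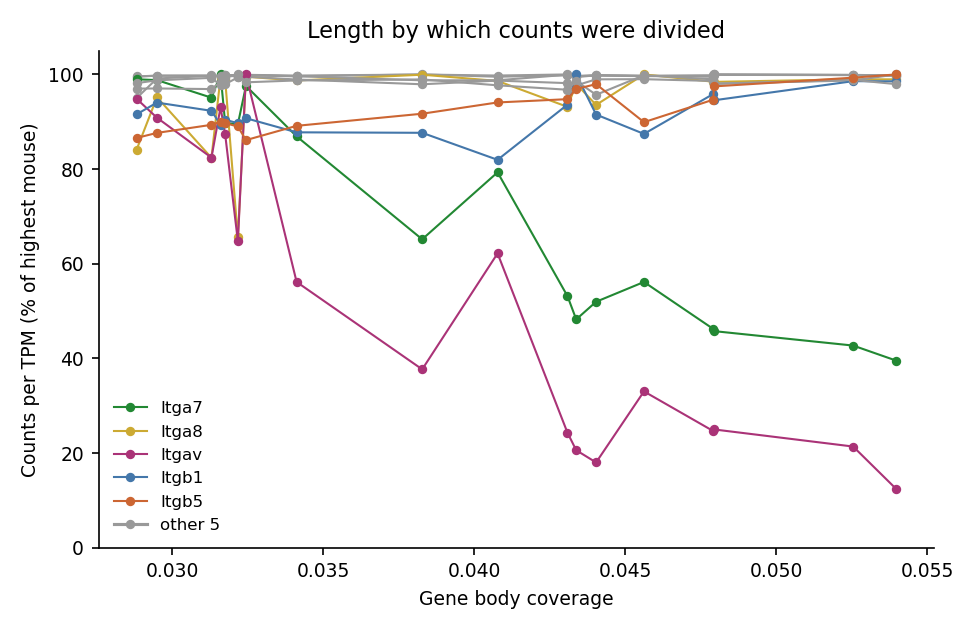
Counts per TPM of each integrin subunit, as a percent of its highest mouse, against gene body coverage, with 1 point per mouse joined in order of coverage. Itgav ends at 12.4% and Itga7 at 39.5%, while Itga1, Itga5, Itga9, Itga11 and Itgb3 (grey) stay at or above 95.01%.

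A score for each cell type, the mean log2(TPM + 1) of its markers, was then set against the members in the same edgeR fit, with genotype kept in it. In whole tissue a lower value can mean fewer cells of a type or less RNA per cell, and these cannot be told apart. Along the cardiomyocyte score 25.4% of all genes were called, 14.0% higher and 11.4% lower, and 4 of 10 members, all higher. These were Itga9 (0.42 ± 0.062 per SD, adjusted p = 0.000119), Itgav (0.25 ± 0.052, adjusted p = 0.00183), Itgb1 (0.23 ± 0.054, adjusted p = 0.00391) and Itga1 (0.30 ± 0.094, adjusted p = 0.0234). They are the members called along coverage, and the cardiomyocyte score itself followed coverage with Pearson r = -0.87 and Spearman rho = -0.87 over 18 mice (permutation p = 1e-05, the smallest 100000 resamples can give, and 2e-05; adjusted over 11 marker scores 0.00011; r = -0.84 without the 2 mice farthest from the median coverage). The score and coverage therefore cannot be told apart for these members. The 12 markers of the score did not move as 1 group along it, 3 being called higher and 3 lower in counts with a median slope of -0.064, so the markers did not follow the name of the score, which was made from TPM. With limma on log2(TPM + 1) and with length offsets Itgav was lower along the score (-0.45 and -0.72), as was Itga7 (-0.29, adjusted p = 0.00164, and -0.45, adjusted p = 0.000157). These fits called 6 and 5 members, beside 45.4% and 25.7% of all genes. The call of Itga1 was lost without WT mouse 16-1, WT mouse 43-3, Wwp2Mut/Mut mouse 1-2 or Wwp2Mut/Mut mouse 33-1, with adjusted p of 0.0547, 0.103, 0.0827 and 0.0815, while its slope stayed between 0.27 and 0.30. The share of all genes called was 16.3% without Wwp2Mut/Mut mouse 1-2 and 15.1% without Wwp2Mut/Mut mouse 33-1.

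Along the fibroblast score 0 members were called, against 0.0121% of all genes, 3 in number. The members with an unadjusted p under 0.05 were Itga8, at 0.38 ± 0.10 per SD (edgeR adjusted p = 0.494), and the fibroblast collagen receptor Itga11, at 0.37 ± 0.12 (adjusted p = 0.494), beside 9.73% of all genes. This count of 2 was 8 with limma on log2(TPM + 1), beside 28.1% of all genes, and 5 without WT mouse 45-1, beside 9.6%. It was 4 without RNA concentration and lane, where the share of all genes was also higher than in the main fit. The last of these fits put Itga8 at 0.23 ± 0.086 and Itga11 at 0.21 ± 0.099. The share of all genes was 3.34% without WT mouse 16-1, 4.92% without WT mouse 43-3 and 5.68% without Wwp2Mut/Mut mouse 1-2. All 10 estimates were above 0 in this fit, with a median of 0.18 beside 0.021 over all genes, and the median was 0.092 without WT mouse 43-3 and between 0.12 and 0.22 without any other mouse. With limma on TPM and with length offsets 8 were above 0 and 2 below, Itgav at -0.21 and -0.41 and Itga7 at -0.043 and -0.20, and with upper quartile factors 9 were above and 1 below. The fibroblast score followed coverage with r = -0.56 and rho = -0.50 over 18 mice (permutation p = 0.015 and 0.036, adjusted over 11 scores 0.054, r = -0.42 without the 2 mice farthest from the median coverage). Along the endothelial score 0 members and 0 genes of all were called by edgeR. Unadjusted p under 0.05 was found for Itga11 (0.31 ± 0.11), Itga1 (0.26 ± 0.12) and Itga8 (0.24 ± 0.11), each with an adjusted p of 1.00, beside 3.94% of all genes. In this fit 6 of 12 fibroblast markers also had such a p, with a median slope of 0.13 over the 12. Of the 12 endothelial markers 5 had one, with a median slope of 0.12, so the score did not single out endothelial markers. Only 1 member had such a p with limma, beside 4.79% of all genes, and without RNA concentration and lane, beside 5.34%. The same held without any 1 of WT mice 16-1, 43-3 and 94-2 and Wwp2Mut/Mut mice 1-2, 8-2, 53-1 and 62-1, beside 3.18% to 4.01%.

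The rest of the pathway was read from fixed lists of other integrin subunits, integrin ligands, and adhesion adaptors and signalling genes. For genotype 0 of 16 other subunits, 0 of 34 ligands and 0 of 40 adaptors were called by edgeR, with 0, 3 and 1 at an unadjusted p under 0.05, all 4 lower in the mutants, beside 3.66% of all genes in either direction. Their median log2 fold changes were 0.023, -0.087 and -0.051. The ligands of smallest p were the matricellular genes Ccn1, Thbs1 and Ccn2 and the osteopontin gene Spp1. Ccn1 was at 18.3, 29.4 and 43.8 TPM in WT mice and 12.6, 16.2 and 26.7 TPM in the mutants, with a log2 fold change of -0.64 ± 0.17 (adjusted p = 0.837). Ccn2 was at 26.5, 60.2 and 85.2 TPM in WT mice and 20.7, 26.0 and 45.8 TPM in the mutants, at -0.62 ± 0.21 (adjusted p = 0.963). The upper part of the WT range was above every mutant for both, while the lower part overlapped.

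Thbs1, the thrombospondin gene, stood at -1.10 ± 0.35 (adjusted p = 0.943) and Spp1 at -0.91 ± 0.45 (adjusted p = 1.00). Of the adaptors Flnc, the muscle filamin, had the smallest p, with a log2 fold change of -0.43 ± 0.20 (adjusted p = 1.00). It was followed by Tln1 (talin, -0.16 ± 0.11), Nrap (-0.18 ± 0.13) and Vcl (vinculin, -0.22 ± 0.18). Among the other subunits Itgb7 (0.52 ± 0.26) and the leukocyte subunit Itgal (0.47 ± 0.23) came first, then Itgb8 (-0.69 ± 0.44) and Itgb6 (-0.15 ± 0.15), with adjusted p of 1.00 for each. Itgb7, Itgal and Itgb8 had median levels of 0.33, 0.275 and 0.09 TPM, below most members, while Itgb6 had one of 2.53 TPM. The list was not low throughout, since Itga6, described above, had a median of 75.2 TPM.

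Along gene body coverage the same lists split by direction. Of the adaptors 12 fell and 9 rose, of the ligands 6 fell and 6 rose, and of the other subunits 4 fell and 2 rose, beside 16.1% and 14.8% of all genes. Among the adaptors that act directly on Itgb1, the kindlin Fermt2 fell by 0.26 ± 0.035 per SD (adjusted p = 1.31e-05), while the kinase Ilk rose by 0.15 ± 0.034 (adjusted p = 0.00248) and the muscle protein Itgb1bp2, known as melusin, rose by 0.25 ± 0.052 (adjusted p = 0.00102). These 3 genes were chosen after their values were seen.

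The genes whose level followed each member most closely were taken from 11336 genes of mean TPM of at least 1, by Pearson r of log2(TPM + 1) over the 18 mice after each genotype's mean was removed. They are a description chosen for their likeness, and all values share the libraries and their coverage. For Itgb1 they were Ssr3 (r = 0.99), Dnajc14 (0.99) and Ddb1 (0.99), and for Itga9 they were Tspan9 (0.97), Klhl34 (0.97) and Srl (0.97), the last a gene of the sarcoplasmic reticulum. For Itga1 they were Jcad, Dtx3l and Ppm1f (0.96, 0.95 and 0.95), and for Itgb5 they were Nsmce3, Tnip1 and Rtcb (0.98, 0.96 and 0.96). For Itga5 they were Pmm2, Jmjd8 and Ttc5 (0.91, 0.87 and 0.86).

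Among the 3 members of lowest level, Itga8 was followed by Fam208b, Ctbp2 and Napg (0.91, 0.91 and 0.90), Itgb3 by Slc11a1, Uggt1 and Trim25 (0.86, 0.85 and 0.84), and Itga11 by Olfml2a, Tmem229b and Tgfb2 (0.86, 0.83 and 0.82). For Tgfb2 r was 0.57 without the 2 mice farthest from the median of Itga11. Several neighbours did not carry over to counts. In log2(CPM + 1) Itgb3 with Slc11a1 stood at 0.11, Itga5 with Jmjd8 at 0.43 and Itgb5 with Tnip1 at 0.51. Itga7 had Usp10, Eif2b5 and Eftud2 at r of 0.96, 0.95 and 0.94 in TPM and 0.13, 0.26 and 0.38 in log2(CPM + 1). Itgav had Atp5b, Fastkd2 and Gm2000 at 0.92, 0.92 and 0.91 in TPM, and at -0.38, 0.50 and -0.63 in log2(CPM + 1).

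Among the members themselves the unit also set which subunits moved together. In TPM the 45 pairs had a median r of 0.47, from -0.84 for Itga7 with Itgb1 to 0.88 for Itga9 with Itgb1, with 16 pairs below 0. In CPM the median was 0.14, and Itgav with Itgb1 stood at 0.79, against -0.83 in TPM. Itga9 with Itgb1 (0.84) and Itga1 with Itgb1 (0.83) stood highest in CPM, and both pairs were as close in TPM (0.88 and 0.84).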

How the data were processed

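Poly(A) RNA of 18 left ventricles (9 WT, 9 Wwp2Mut/Mut) was sequenced. The authors aligned reads to mouse genome m38 with STAR 2.5.2b and quantified genes with RSEM 1.2.31, leaving out mitochondrial and rRNA genes. They deposited expected counts (5.112% of values not whole), TPM per gene and mouse, and a sample table with lane, RNA concentration, absorbance ratios and gene body coverage as a fraction. The deposited absorbance ratio columns were not used. Expected counts were rounded. Genotype, coverage or a marker score was tested with edgeR 4.0.16 (TMM, glmQLFit, glmQLFTest; R 4.3.3), adjusting for lane and centred RNA concentration, over genes with more than 1 count in total; coverage and scores were scaled to SD units beside genotype. Calls used an FDR of 0.05, adjusted over all genes tested. limma 3.58.1 on log2(TPM + 1), DESeq2 1.42.0 (Cooks cutoff off), other size factors, filters and covariates, and each mouse left out were alternatives. Permutation tests were two-sided, exact between genotypes and with 100000 resamples for correlations. Scripts were tested on simulated data. Replicates are separate mice. Coordinates and transcript lists are from GENCODE M21 (GRCm38), while the authors quantified with an Ensembl build. All 195 listed symbols were matched. Intervals are 95% and were taken from the fit. The text names all members, Wwp2, up to 4 genes per pathway list by smallest genotype p, and the 3 genes most like each member; other genes were chosen after their values were seen. The members and lists were chosen with earlier results of these data known. Offsets for effective length and limma on rescaled TPM along coverage were alternatives chosen after seeing the data.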

Additional observations from a re-analysis of the deposited data

Results flagged for a closer look

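Within each genotype, the distance of the extreme mouse from its neighbour, as a share of the whole range, was set against Dixon's critical value for 9 mice. Over 44 combinations of gene, unit and genotype 4 were marked, where about 1 in 20 groups is marked by chance, and the units are not independent. In Itga5, WT mouse 94-2 was highest at 110.1 CPM against a WT median of 72.8, with a gap of 0.497 of the range. In Itga11, WT mouse 43-3, the mouse whose RNA concentration entry of 1.68 ng/µl is in doubt, was highest at 0.91 TPM against a median of 0.41. In Wwp2, Wwp2Mut/Mut mouse 52-1 was highest among the mutants in both units, at 3.00 TPM against a median of 1.58 and at 16.2 CPM against a median of 8.05. These values are given without explanation, and no cause was tested.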

How the results depend on the processing

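For genotype 0 members were called under every alternative run and 0 pathway genes under each edgeR and DESeq2 alternative, the lists not being counted under limma or the permutation test, and Wwp2 stayed lower, at -1.61 to -1.33 with each mouse left out. Signs near 0 turned, none of them called. Without RNA concentration and lane Itga1, Itgav and Itgb1 were at 0.038, 0.10 and 0.034, with lane alone at 0.072, 0.083 and 0.035, and with gene body coverage added at 0.054, 0.082 and 0.053. With limma Itgav and Itgb5 were at 0.070 and -0.13 on log2(TPM + 1), filtered or not, at 0.095 and -0.13 on log2(TPM + 0.1), and at 0.071 and -0.13 on rescaled TPM. The median of all genes in these fits was -0.11 filtered, -0.028 unfiltered, -0.16 and -0.12. With effective length offsets Itga7 and Itgav were at 0.16 and 0.30. With each mouse left out the genotype ranges were -0.10 to 0.032 for Itgav, -0.14 to 0.018 for Itgb1, -0.18 to 0.15 for Itga11, -0.28 to -0.019 for Itga1, -0.40 to -0.16 for Itga9, -0.16 to -0.064 for Itga5, -0.097 to -0.029 for Itga7 and 0.013 to 0.11 for Itgb5.

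Along gene body coverage the 4 calls in counts held with each mouse left out. limma on log2(TPM + 1) called 6 members, effective length offsets 5 and limma on rescaled TPM 8. In these fits Itgav turned to 0.45, 0.73 and 0.41, and Itga5 was at -0.094 with limma and -0.17 on rescaled TPM. Itgb5 was at 0.026 with upper quartile factors and 0.0012 with filterByExpr, and Itga7 at -0.0078 without RNA concentration and lane. With each mouse left out Itga7 ran from -0.0060 to 0.037, Itga11 from -0.11 to 0.048, Itgb5 from -0.033 to 0.018, Itgb3 from -0.16 to -0.00089, Itga8 from -0.18 to -0.039 and Itga5 from 0.016 to 0.11. Along the cardiomyocyte score Itgav turned to -0.45 with limma and -0.72 with length offsets, and with a mouse left out 3 or 4 members were called, beside 15.1% to 27.9% of all genes. For Itgav the length divisor shows where the units part, and the cause behind it was not tested. No paired analysis was possible because the mouse numbers are not shared between genotypes.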
